A study of Rattus norvegicus with 18 samples.

Results

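Cultures of hippocampal neurons also hold glia, and 35 marker genes of those cells were followed here: 13 of astrocytes, 11 of the oligodendrocyte lineage and 11 of microglia. They were picked by gene symbol from the platform's probe annotation, with 1 probe set per gene, the one with the highest mean over the 18 arrays. On this platform several short oligonucleotides per transcript form a probe set, which yields 1 signal. Of the 35 markers, 34 had a probe set, out of 14218 genes with one. Sox9 was not analysed here. The cells were rat hippocampal neurons kept in dissociated culture for 10 days. Lentivirus added on day 3 delivered shRNAs that were either controls (the control arm) or directed at MEF2A and MEF2D (the RNAi arm). On day 10 every culture spent 1 h with AP5, an NMDA receptor blocker, and TTX, a sodium channel blocker. KCl at 55 mM followed for 0, 1 or 6 h. The 6 groups were therefore control 0 h, control 1 h, control 6 h, RNAi 0 h, RNAi 1 h and RNAi 6 h, each with 3 arrays numbered 1 to 3. All groups share the virus, the blockers and the culture, so the 0 h groups are silenced cultures and not untouched ones. The labels call the 3 arrays of a group biological replicates and say nothing more of their source, so p-values measure the spread between these samples, which may be technical. The age and sex of the animals, the pooling of cultures and any agent against dividing glia are not given in the sources used here.

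Astrocytes clear glutamate and potassium around neurons, couple to each other through gap junctions and supply neurons with glutamine and lactate. Oligodendrocytes make myelin, and they arise from progenitors that divide and carry PDGFRA and the proteoglycan NG2 (the product of Cspg4). Microglia are the resident macrophages of the brain, and their products include the complement component C1q. Potassium chloride at high concentration depolarises neurons and glia alike, and lentivirus can enter both.

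The deposited signals are on a linear scale and were compared as log2 values by limma, over 10934 genes bright enough to test. A gene is called where its p-value, adjusted by Benjamini-Hochberg over those genes, is below 0.05, and n is 3 arrays per group throughout. The labels were borne out by their own targets. Mef2a was lower in the RNAi arm by a log2 difference of -1.61 at 0 h, -1.92 at 1 h and -1.86 at 6 h, and Mef2d by -0.52, -0.42 and -0.57 (adjusted p at most 0.00138). Fos rose after 1 h of KCl by 4.30 and Arc by 3.02 in the control arm. Of 22 neuronal markers, 21 were bright enough to test. The 18 arrays had medians of 240.0 to 248 and 40th percentiles of 154 to 164, and no pair of arrays held identical values.

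Of all 14218 genes with a probe set, 10934 were bright enough to test. All 12 astrocyte markers with a probe set were tested, beside 6 of 11 of the oligodendrocyte lineage and 7 of 11 of microglia. Signals ran from 8386 to 13276 for Gfap, the astrocyte intermediate filament protein, from 8793 to 12647 for Slc1a3, the glutamate transporter GLAST, and from 13990 to 17553 for Fabp7, a fatty acid binding protein of radial glia and astrocytes. Slc1a2, the glutamate transporter GLT-1 of mature astrocytes, lay at 154 to 204 and exceeded its array's 40th percentile on 17 arrays. Signals of different probe sets cannot be ranked against each other as amounts of RNA, but each can be set against the rest of its own array.

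In the oligodendrocyte lineage 6 of 11 markers were tested. Olig1 (5905 to 10641) and Sox10 (276 to 472) are transcription factors of the lineage, Pdgfra (347 to 3773) and Cspg4 (99.6 to 276) mark its progenitors, and Cnp (1826 to 3475) and Mbp (485 to 1118) are proteins of maturing cells and myelin. The remaining 5 were dim. Mog and Mobp, both proteins of compact or outer myelin, lay under the floor of 72.6 on all 18 arrays (51.3 to 63.4 and 49.6 to 65.9). Mag, another myelin protein, lay at 122 to 163, Ugt8, an enzyme of myelin lipid synthesis, at 81.8 to 134, and Olig2, a transcription factor of the lineage, at 103 to 137. The split between tested and dim genes did not follow the stage of the cells. Cnp and Mbp exceeded their array's 40th percentile on all 18 arrays, as Pdgfra did, but Cspg4 did so on 11 and Olig2 on none.

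Among the microglia markers 7 of 11 were tested, most of them not far from the limit. Aif1, a calcium-binding protein of microglia, lay at 411 to 476 on all arrays. Cd68, a lysosomal protein of phagocytes, exceeded its array's 40th percentile on 16 arrays, C1qb on 15, Itgam on 9, Csf1r, the CSF1 receptor, on 8 and C1qc on 3. Ptprc, the leukocyte antigen CD45, was under the floor on all 18 arrays (48.3 to 63.3). Tyrobp (88.0 to 147), Cx3cr1 (135 to 165) and Cd74 (76.9 to 98.8) were not tested either. These 4 and the 5 dim genes of the oligodendrocyte lineage were not bright enough to test, so no change in them is reported. For Mog, Mobp and Ptprc, under the floor on all arrays, a change could not be seen.

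Promoters of 5 genes on which the results turn are printed here, each as the 250 bases before the RefSeq start site (build GRCr8), 5′ to 3′ on the gene's own strand. They are Pdgfra (chr14:33408517-33408766, minus strand), which differed most between replicate numbers; Cd68 (chr10:54882442-54882691, minus), which rose after KCl; Gja1 (chr20:36302314-36302563, plus), which was higher with MEF2 RNAi; and C1qa (chr5:154419934-154420183, minus) and C1qb (chr5:154407828-154408077, minus), 2 of the 3 genes of C1q. Capitals mark matches, on either strand, to TGANTCA (the AP-1 motif, bound by Fos and Jun proteins) or GAGGAA (a core bound by ETS factors such as PU.1).
Pdgfra: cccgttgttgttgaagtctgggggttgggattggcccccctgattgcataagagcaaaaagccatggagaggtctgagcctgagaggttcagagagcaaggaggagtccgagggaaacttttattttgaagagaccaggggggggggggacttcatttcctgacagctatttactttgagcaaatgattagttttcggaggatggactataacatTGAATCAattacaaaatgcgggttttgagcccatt
Cd68: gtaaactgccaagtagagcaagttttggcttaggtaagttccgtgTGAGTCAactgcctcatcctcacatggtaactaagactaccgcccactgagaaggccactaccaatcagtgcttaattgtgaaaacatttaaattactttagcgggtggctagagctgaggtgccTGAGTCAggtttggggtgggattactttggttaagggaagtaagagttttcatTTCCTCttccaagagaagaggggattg
Gja1: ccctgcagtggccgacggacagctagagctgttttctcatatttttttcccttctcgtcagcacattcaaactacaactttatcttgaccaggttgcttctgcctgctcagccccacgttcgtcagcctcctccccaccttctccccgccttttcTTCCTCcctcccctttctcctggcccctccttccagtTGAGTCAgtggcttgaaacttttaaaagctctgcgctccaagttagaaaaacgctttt
C1qa: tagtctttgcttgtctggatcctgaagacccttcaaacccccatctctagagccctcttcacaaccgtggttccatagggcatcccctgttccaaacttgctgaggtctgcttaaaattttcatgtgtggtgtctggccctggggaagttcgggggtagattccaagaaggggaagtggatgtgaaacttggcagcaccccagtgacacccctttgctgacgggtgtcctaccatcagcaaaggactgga
C1qb: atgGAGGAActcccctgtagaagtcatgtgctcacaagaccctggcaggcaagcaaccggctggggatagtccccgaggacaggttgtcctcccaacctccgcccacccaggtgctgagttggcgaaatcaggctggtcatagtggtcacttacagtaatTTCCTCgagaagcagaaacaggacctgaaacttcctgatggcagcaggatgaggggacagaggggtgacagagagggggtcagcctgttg
Of the 34 markers with a probe set, 28 matched RefSeq promoters by symbol, with 34 windows of 250 bases in all since some genes have several starts. TGANTCA was found in 3 of the 34 windows (8.82%; those of Cd68, Gja1 and Pdgfra) and in 6.34% of all 33469 windows of the table. GAGGAA was found in 12 of the 34 (35.3%) and in 23.3% of all windows. The CRE motif TGACGTCA (1.59% of all windows), the MEF2 box (0.523%) and the CArG box of serum response factor (1.5%) were found in none of the 34. These are matches of letters in a short window and say nothing of binding. In the RefSeq table C1qb, C1qc and C1qa stand next to each other on chromosome 5.

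After 1 h of KCl, Cd68 was the only one of the 25 tested markers called, and it was higher in both arms. In the control arm its signals were 169.8, 152.4 and 181.5 at 0 h, 230.1, 233.8 and 222.8 at 1 h, and 158.7, 173.7 and 162.8 at 6 h. All 3 arrays at 1 h lay above all 6 arrays of the other times. The rise at 1 h was 1.37-fold (log2 difference 0.45, SE 0.07, adjusted p = 0.00128), and it passed the threshold in all 24 alternative settings. At 6 h the difference from 0 h was -0.02 (adjusted p = 0.85). In bulk RNA a change in the number of cells of a type and a change in RNA per cell cannot be told apart.

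In the RNAi arm Cd68 read 187.4, 162.4 and 187.4 at 0 h, 221.4, 207.1 and 218.6 at 1 h, and 170.1, 167.9 and 174.0 at 6 h. The groups again did not overlap, with a 1.21-fold rise at 1 h (log2 0.27, SE 0.07, adjusted p = 0.0423). This call was lost when any of 12 arrays was left out (log2 0.20 to 0.31, adjusted p 0.0503 to 0.198), namely all RNAi arrays except RNAi 0 h number 1, together with control 0 h number 1, control 1 h numbers 2 and 3 and control 6 h number 3. The difference between the arms in this response was -0.18 (SE 0.10), with an adjusted p of 1. Of all genes tested, 1.19% were called higher at 1 h in the control arm and 1.23% in the RNAi arm. No other tested microglia marker was called at 1 h or 6 h in either arm, and the median of the 7 at 1 h was 0.10 (control) and -0.01 (RNAi), beside -0.02 and -0.04 over all genes.

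After 6 h of KCl, 3 astrocyte markers were called in the control arm, and they moved in opposite directions. Glul and Vim rose and Gfap fell. Of the genes tested 16.1% were called higher and 25.5% lower, so 2 higher and 1 lower of 25 markers is a smaller share than the background. The 12 tested astrocyte markers had a median difference of -0.05, beside -0.02 over all genes.

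Glul encodes glutamine synthetase, the enzyme by which astrocytes turn glutamate into glutamine. Its control signals were 7757, 5288 and 6564 at 0 h, 8978, 6018 and 6757 at 1 h, and 9490, 7449 and 9290 at 6 h. The groups at 0 h and 6 h overlapped, but each number rose, by 0.29, 0.49 and 0.50 on the log2 scale for numbers 1, 2 and 3. The mean rise was 1.35-fold (log2 0.43, SE 0.16, adjusted p = 0.0407; 0.000226 with the replicate number as a block). The call was lost after quantile normalization (0.40, adjusted p = 0.0593), without a filter on dim genes (adjusted p = 0.0762), and without control 6 h number 1 or 3 or control 0 h number 2 or 3 (0.28 to 0.44, adjusted p 0.0760 to 0.204). With RNAi the rise was 0.24 (adjusted p = 0.248; 0.0158 with the block). Both other probe sets of Glul were called higher at 6 h in a test over all probe sets, in control cells by 0.60 (adjusted p = 0.00349) and 0.55 (0.0393), with RNAi by 0.70 (0.00129) and 0.80 (0.00478). In the RNAi arm the 3 probe sets therefore disagree in size.

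Vim encodes vimentin, an intermediate filament protein of immature and reactive astrocytes that fibroblasts and endothelial cells also make. It read 10968, 9413 and 9629 in control 0 h, 9945, 7722 and 9653 in control 1 h, and 12759, 11476 and 11911 in control 6 h. All 3 arrays at 6 h lay above all arrays at 0 h, a 1.21-fold rise (log2 0.27, SE 0.09, adjusted p = 0.0305). The call was lost without control 6 h number 1 or 3 or control 0 h number 2 or 3 (0.23 to 0.28, adjusted p 0.0594 to 0.114). In the RNAi arm the difference was 0.14 and was not called (adjusted p = 0.254, or 0.0680 with the replicate number as a block). There too the arrays at 6 h lay above those at 0 h, and numbers 1, 2 and 3 rose by 0.10, 0.12 and 0.21.

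Gfap moved the other way. It read 11531, 10941 and 11025 in control 0 h and 8386, 9210 and 10185 in control 6 h, with no overlap, and the fall was -0.27 (SE 0.09, adjusted p = 0.0275). In RNAi 0 h it read 12718, 11041 and 13276, and in RNAi 6 h 9587, 9722 and 11421, which overlap. The fall there was also -0.27 (SE 0.09, adjusted p = 0.0310), in an arm where 25.3% of all genes were called lower. The control call was lost without any of the control 0 h arrays or control 6 h number 1 or 2 (-0.29 to -0.20, adjusted p 0.0503 to 0.129), and the RNAi call without RNAi 0 h number 1 or 3 or RNAi 6 h number 1 or 2 (-0.25 to -0.21, adjusted p 0.0811 to 0.127). Both fell in all 3 numbers, by -0.46, -0.25 and -0.11 in the control arm for numbers 1, 2 and 3.

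**Figure D1:**
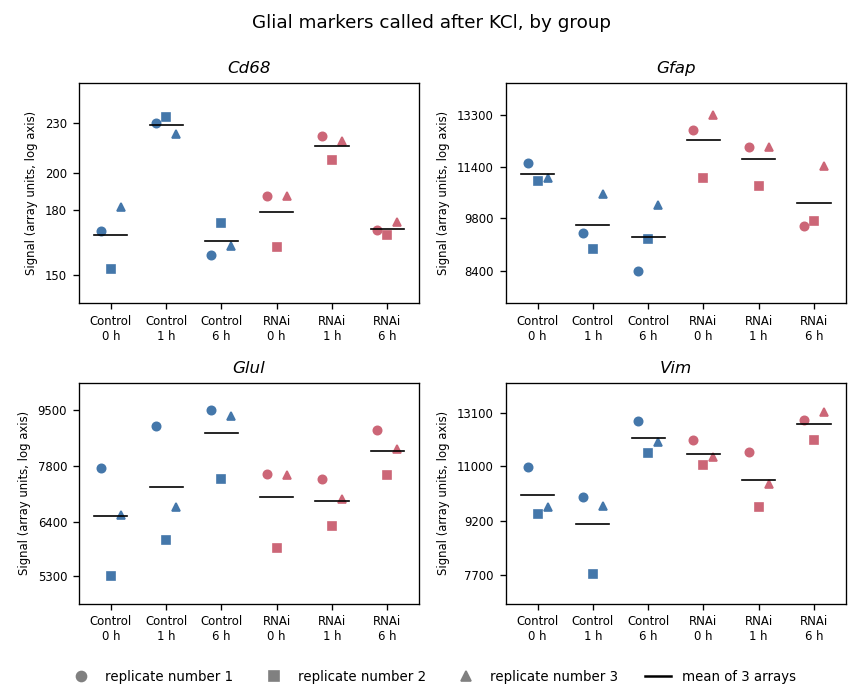
Signal (array units, log axis) of Cd68, Gfap, Glul and Vim in the 6 groups, 1 point per array with the shape giving the replicate number. The bar is the arithmetic mean of the 3 signals. Cd68 stands higher at 1 h in both arms and is back near its 0 h level at 6 h, while Glul and Vim are highest and Gfap lowest at 6 h in the control arm.

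With the replicate number as a block, 6 markers were called at 6 h in the control arm in place of 3, against 50.3% of genes called in either direction. The 3 added were Aldoc (-0.22, adjusted p = 0.00835), Mbp (0.43, adjusted p = 0.00268) and Cnp (-0.26, adjusted p = 0.0365). Mbp read 518, 648 and 700 in control 0 h and 703, 725 and 1118 in control 6 h, which do not overlap. In the RNAi arm the block raised the count from 1 to 3, with Gfap and Cnp (-0.26, adjusted p = 0.0351) lower and Glul higher, against 49.7% of genes in either direction. Both counts are smaller shares of the 25 than the background. Without the block no oligodendrocyte marker was called at 6 h, with 1 of the 6 at an unadjusted p under 0.05 in the control arm and 0 in the RNAi arm, and no microglia marker reached that level in either arm.

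Some markers of other cells were called after 6 h of KCl as well. The background share in the control arm was 16.1% for higher and 25.5% for lower genes, and with the block 50.3% in either direction. A few calls in a list therefore do not by themselves show that its cells responded as a group. In the control arm the endothelial, mural and fibroblast list had 3 higher and 0 lower of 11 tested (Cldn5, the tight junction protein of brain endothelium, by 1.23; Kdr, a VEGF receptor, by 0.31; Fn1, fibronectin, by 0.63), and its summed signal was 6803 to 7203 at 0 h and 7336 to 8365 at 6 h. Pecam1, Flt1, Tek and Vwf, which define endothelium, were too dim to test, and Cdh5 was not analysed here. Of 7 tested reactive glia genes, Cd44, a hyaluronan receptor (0.86, adjusted p = 0.000744), and Timp1, an inhibitor of matrix proteases (0.49, adjusted p = 0.00184), rose and Hspb1, a small heat shock protein (-0.95, adjusted p = 0.00437), fell. The neuronal list had 3 higher and 2 lower of 21 (5 and 4 with the block). The additional astrocyte list had 0 higher and 2 lower of 16, the additional oligodendrocyte list 1 and 2 of 10 (3 and 2 with the block), and the additional microglia list 1 and 0 of 11. What part these other cells have in the changes of Glul, Vim and Gfap was not tested.

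MEF2 RNAi went with higher signals of some astrocyte markers, but not of all. Averaged over the 3 times, 6 of 12 tested astrocyte markers were called higher in the RNAi arm and none lower: S100b, Gja1, Aldoc, Gfap, Vim and Slc1a2. They were also the only ones called of all 25 tested glial markers. The background share was 20.9% of genes called higher and 16.6% lower. No tested marker of the oligodendrocyte lineage (1 of 6 at an unadjusted p under 0.05) or of microglia (0 of 7) was called by limma. The median difference was 0.14 for the 12 astrocyte markers, 0.09 for the 6 of the oligodendrocyte lineage and 0.02 for the 7 of microglia, beside 0.01 over all genes. Of the 12 astrocyte differences 8 lay above 0 and 4 below, beside 5890 and 5044 of the 10934 genes tested. The 4 were Aldh1l1 (-0.22), Atp1b2 (-0.15), Fabp7 (-0.03) and Glul (-0.01), and 2 of them were called lower with the replicate number as a block.

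S100b, a calcium-binding protein of astrocytes, had the largest difference of the 6. In the control arm it read 3881, 2873 and 4227 at 0 h, 4130, 3060 and 4045 at 1 h, and 4149, 2765 and 3482 at 6 h. In the RNAi arm it read 5316, 4039 and 5139, then 5778, 4268 and 5152, then 5545, 4037 and 4375. Number 2 was the lowest of its group in all 6 groups, and within each number RNAi stood above control at every time. The average difference was 1.34-fold (log2 0.43, SE 0.11, adjusted p = 0.00509), and 0.45, 0.51 and 0.32 for numbers 1, 2 and 3.

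Gja1 encodes connexin 43, the main gap junction protein of astrocytes. Control signals were 8184, 6020 and 7693 at 0 h, 7828, 6260 and 7689 at 1 h, and 8051, 6407 and 8058 at 6 h. RNAi signals were 10176, 8552 and 10070.2, then 9904, 8074 and 9229, then 9956, 8242 and 9468. At each time all 3 RNAi arrays lay above all 3 control arrays. The average difference was 1.27-fold (log2 0.34, SE 0.08, adjusted p = 0.00220), and a second, dimmer probe set of the gene (289 to 750) was higher by 0.52 (adjusted p = 0.0127 over all probe sets).

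Aldoc, the brain aldolase of glycolysis, was the only marker called at any single time in the fit without the block. Control signals were 5848, 4833 and 5642 at 0 h, 5615, 4611 and 5305 at 1 h, and 5249, 4450 and 4338 at 6 h. RNAi signals were 6493, 6281 and 6422, then 6793, 5904 and 6073, then 6894, 5590 and 5855. The arms did not overlap at any of the 3 times. The average difference was 1.23-fold (log2 0.30, SE 0.06, adjusted p = 0.000816) and that at 6 h 1.31-fold (log2 0.39, SE 0.10, adjusted p = 0.0164), where 8.67% of all genes were called higher. The call at 6 h was lost without RNAi 6 h number 1 or control 6 h number 2 or 3 (0.30 to 0.35, adjusted p 0.0662 to 0.0904).

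Gfap was higher by 1.14-fold on average (log2 0.19, SE 0.05, adjusted p = 0.0119). At 1 h it read 9374, 8959 and 10527 in control cultures and 12096, 10788 and 12076 with RNAi, without overlap. Vim was higher by 1.12-fold (log2 0.16, SE 0.05, adjusted p = 0.0304), with 11967, 11033 and 11340.2 in RNAi 0 h, all above the control 0 h arrays, and 11517, 9618 and 10386 in RNAi 1 h and 12794, 11977 and 13113 in RNAi 6 h. The call on Vim was lost without RNAi number 1 at 0, 1 or 6 h, RNAi 6 h number 3, control number 2 at 0, 1 or 6 h or control number 3 at 0 or 6 h (0.12 to 0.16, adjusted p 0.0504 to 0.0665). Slc1a2 had the smallest difference, 1.09-fold (log2 0.13, SE 0.05, adjusted p = 0.0324), with 154 to 182 over the 9 control arrays and 167 to 204 over the 9 RNAi arrays, close to the 40th percentiles. Its call was lost as a mean over its 2 probe sets (0.06, adjusted p = 0.0795). The second probe set lay at 57.8 to 72.7, hardly above the floor of 72.6 on any array, so that mean had to shrink the difference. The call was also lost without control number 1 at 0, 1 or 6 h or control number 2 at 0 or 1 h. Leaving out RNAi 6 h number 1, or RNAi number 2 or 3 at 0 or 1 h, ended it too (0.11 to 0.13, adjusted p 0.0525 to 0.0689 over all these arrays). Gfap, S100b, Gja1, Aldoc and Vim were higher with RNAi in 9 of 9 pairs of arrays of the same time and number, and Slc1a2 in 8 of 9. These 6 were called from the same arrays, and the 9 pairs come from 3 numbers. The pair counts therefore describe the calls and add no support to them.

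**Figure D2:**
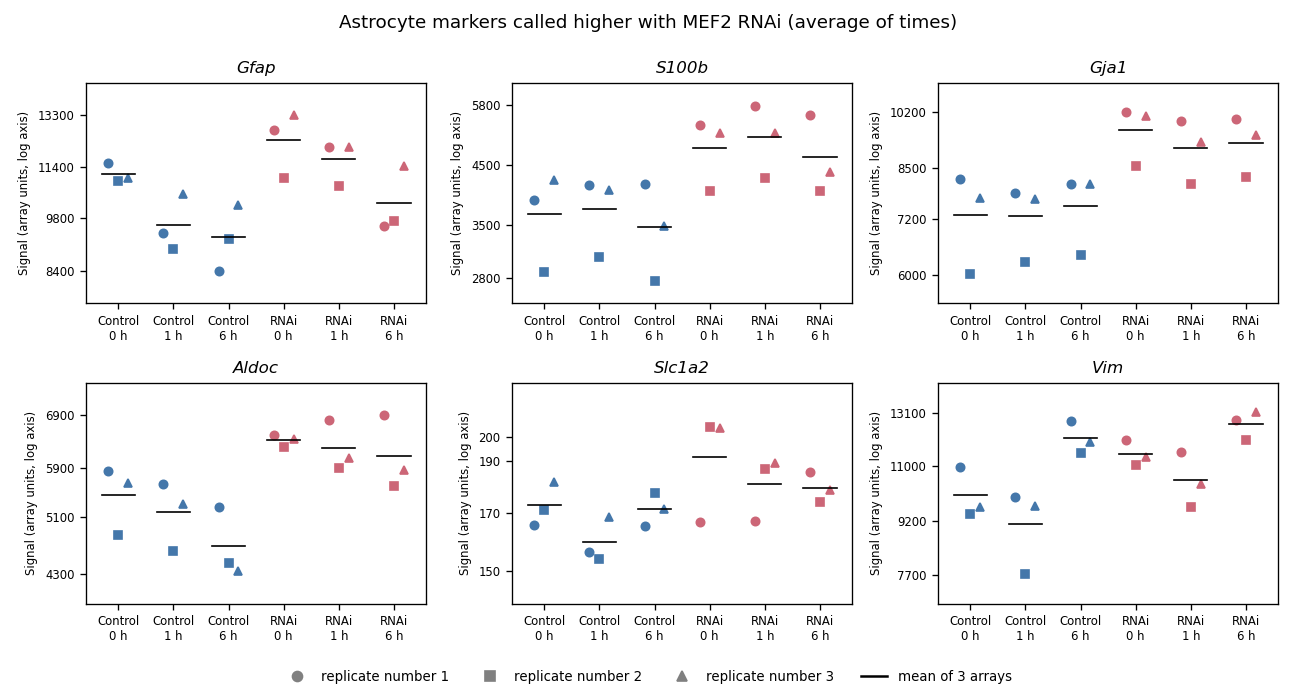
Signal (array units, log axis) of the 6 astrocyte markers called higher in the RNAi arm averaged over times, 1 point per array. The shape gives the replicate number, blue is control, red is RNAi and the bar is the arithmetic mean of the 3 signals. For Gja1 and Aldoc the 3 red points lie above the 3 blue points at each time, and for S100b the square (number 2) is the lowest point of every group.

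Taken at single times without the block, no marker was called at 0 h (3 of 25 at an unadjusted p under 0.05) or at 1 h (6 of 25), where limma called 14.9% and 17.1% of all genes in either direction. With the replicate number as a block 6 markers were called at each time. At 0 h S100b, Gja1, Aldoc, Vim and Aqp4, the water channel of astrocyte endfeet (0.36, adjusted p = 0.00578), were higher and Atp1b2, a subunit of the sodium pump (-0.21, adjusted p = 0.0332), was lower, against 15.9% and 10.2% of all genes. At 1 h Gfap, S100b, Gja1, Aldoc, Aqp4 and Vim were higher and none was lower, against 14.2% and 13.9%. At 6 h S100b, Gja1, Aldoc and Aqp4 were higher and Aldh1l1, an enzyme of folate metabolism used as a general astrocyte marker (-0.29, adjusted p = 0.0159), and Atp1b2 (-0.24, adjusted p = 0.0167) were lower, against 15.3% and 12.9%.

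Averaged over times, the block gave 13 called markers in place of 6, 10 higher and 3 lower, against 26.9% and 20.9% of all genes. Added on the higher side were Aqp4 (0.33, adjusted p = 5.2e-05), Slc1a3 (0.10, adjusted p = 0.0347), Cnp (0.22, adjusted p = 0.00436) and C1qb (0.16, adjusted p = 0.0146). Aldh1l1 (-0.22, adjusted p = 0.00158), Atp1b2 (-0.15, adjusted p = 0.00457) and Mbp (-0.21, adjusted p = 0.00760) were added on the lower side. Aqp4 shows what the block takes out. It read 6489, 3386 and 5276 in control 0 h and 7282, 4612 and 7244 in RNAi 0 h, where the groups overlap although each RNAi array is above the control array of its number. RNAi was higher in 9 of 9 such pairs for Aqp4, and lower in 8 of 9 for Aldh1l1, Atp1b2 and Mbp. These markers too were called from the same arrays, so the pair counts are a description. Glul (-0.01) and Fabp7 (-0.03) were not called with the block or without it. With the block, astrocyte markers were thus called in both directions.

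Other lists are given beside this. Of 16 additional astrocyte genes tested, 7 were called higher and 1 lower (12 and 1 with the block), with a median of 0.24. Among them Ntsr2, a neurotensin receptor (0.57, adjusted p = 0.00339), and Id3, an inhibitor of helix-loop-helix factors (0.82, adjusted p = 0.00144), were higher, and Gpc4, a glypican that astrocytes secrete (-0.59, adjusted p = 1.15e-05), was lower. All 7 tested of 15 reactive glia genes were higher (median 0.56), among them Timp1 (0.58, adjusted p = 3.66e-06), S1pr3, a sphingosine-1-phosphate receptor (0.56, adjusted p = 6.02e-05), Tnc, the matrix protein tenascin C (0.41, adjusted p = 0.000725), and Hspb1 (0.69, adjusted p = 0.00100). The other 8 were not tested here.

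Neuronal markers had 2 higher and 9 lower of 21 (median -0.08), among them the neurofilament gene Nefm (-1.04), the vesicular glutamate transporter gene Slc17a7 (-0.60) and the kinase gene Camk2a (-0.35) lower and Nefh (0.31) higher. Their summed signal was 99360 to 109505 over the control arrays and 92887 to 107636 over the RNAi arrays, and that of the 12 astrocyte markers was 67914 to 86818 and 79130 to 92015. Endothelial, mural and fibroblast markers had 1 higher and 4 lower of 11, with the matrix proteoglycan genes Dcn (-0.86) and Lum (-0.83) and Cldn5 (-0.44) lower and Fn1 (0.41) higher. Their sums were 6292 to 8365 over control and 5234 to 8593 over RNAi arrays. Proliferating and progenitor cell markers had 2 higher and 0 lower of 11 (Prom1 0.41, Hes1 0.32), and 6 and 0 with the block. Additional oligodendrocyte genes had 1 higher (Sirt2 0.38) and 2 lower (Tspan2 -0.36, Gpr37 -0.33) of 10, and additional microglia genes 2 higher (Hexa 0.39, Ctss 0.18) and 1 lower (Coro1a -0.23) of 11. With the block the other lists moved by less, to 7 and 0 for reactive glia genes, 3 and 10 for neuronal, 1 and 5 for endothelial, mural and fibroblast, 1 and 2 for additional oligodendrocyte and 2 and 1 for additional microglia genes. What part the lower neuronal signal has in the higher astrocyte signal of each array was not tested.

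No marker was called for a difference between the arms in its response to KCl (an interaction term). At 1 h and at 6 h limma called 0 of the 25 markers, and 0 of the 25 had an unadjusted p under 0.05. Over all genes 0% were called at 1 h (363 genes at an unadjusted p under 0.05) and 0.119% at 6 h. The differences ranged from -0.23 to 0.28 over the markers at 1 h and from -0.20 to 0.20 at 6 h.

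More glial markers were called for the replicate number than for KCl or RNAi. In the fit with the number as a block, the F test of the number called 20 of 25 markers, against 33.0% of all genes. They were 11 of 12 astrocyte markers, 6 of 6 of the oligodendrocyte lineage and 3 of 7 of microglia. The median range between the 3 number means was 0.28 on the log2 scale for astrocyte markers, 0.51 for the oligodendrocyte lineage and 0.07 for microglia, beside 0.12 over all genes. Cspg4 passed the brightness filter only on arrays of numbers 1 and 2, and C1qc only on 3 arrays of number 3, so both had to differ between numbers. Cspg4 is counted in the 20 and in the 6 of the oligodendrocyte lineage, and C1qc in the 20 and in the 3 of microglia. Their calls say nothing beyond the filter, so those counts are too high as a result. The median range of 0.51 also includes Cspg4 (0.91), and that of 0.07 includes C1qc (0.37). The ranges of Mbp, Cnp, Olig1, Sox10 and Pdgfra were 0.38, 0.59, 0.42, 0.38 and 2.66. The values of Cspg4 and C1qc are given as a description with no test.

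Pdgfra, the receptor that platelet-derived growth factor uses to drive progenitor division, differed most, by 6.31-fold between the highest and lowest number mean (adjusted p = 1.71e-05). Over its 6 arrays, number 1 had a lowest, median and highest signal of 2199, 2943 and 3773, number 2 of 703, 2028 and 2931, and number 3 of 347, 460 and 644. Number 3 did not overlap either of the other numbers. The arms differed within numbers, but not in 1 direction. In number 1 control read 2355, 2541 and 2199 at 0, 1 and 6 h and RNAi 3397, 3346 and 3773. In number 2 control read 703, 1466 and 1615 and RNAi 2669, 2442 and 2931. In number 3 control read 644, 523 and 449 and RNAi 360, 472 and 347. RNAi was thus higher by 0.57 and 1.17 in numbers 1 and 2 and lower by a difference of -0.45 in number 3, and the average of 0.43 (SE 0.61) was not called (adjusted p = 0.63).

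Cspg4 had the next widest range of the lineage, with 165, 209 and 276 in number 1, 158, 219 and 249 in number 2 and 99.6, 118 and 142 in number 3, a 1.88-fold range. Olig1 read 8797, 9015 and 10641 in number 1, 5905, 8059 and 8992 in number 2 and 6592, 7097 and 7378 in number 3 (1.34-fold, adjusted p = 0.00177). Cnp (1.51-fold) and Sox10 (1.30-fold) were also lowest in number 3. Mbp ran the other way, with 502, 542 and 703 in number 1 and 535, 701 and 1118 in number 3 (1.30-fold, adjusted p = 0.00275). Pdgfra was thus lowest in the number where Mbp was highest. Sox10 was highest in number 2, so the order of the other numbers was not shared by all.

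Among the astrocyte markers number 2 was lowest for 11 of 12 and number 1 highest for 10. Over all 10934 genes tested, number 2 was lowest for 3094 and number 1 highest for 4414. Aqp4 had the widest range, 1.64-fold (adjusted p = 5.93e-06), with 5219, 6753 and 7282 in number 1, 3386, 3991 and 4893 in number 2 and 4697, 5486 and 7244 in number 3. Aldh1l1 (1.46-fold), S100b (1.37-fold), Glul (1.31-fold), Atp1b2 (1.28-fold) and Gja1 (1.25-fold) shared that order at its low end. Slc1a2 was the exception to the calls (adjusted p = 0.134). The call on Gfap (1.13-fold, adjusted p = 0.0319) was lost without control 1 h number 2 or 3, control 6 h number 3, RNAi 0 h number 2 or 3, RNAi 1 h number 2, or RNAi 6 h number 2 or 3 (log2 range 0.15 to 0.17, adjusted p 0.0553 to 0.0952). That on Fabp7 (1.08-fold, adjusted p = 0.0476) was lost without any array other than control 0 h number 3, RNAi 0 h number 1 and RNAi 0 h number 3 (0.08 to 0.12, adjusted p 0.0521 to 0.125).

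In the microglia class the called markers were genes of C1q, which starts the classical complement pathway and tags synapses for removal. C1qa had 202, 230.5 and 258 in number 1, 219, 247 and 272 in number 2 and 251, 299.6 and 346 in number 3. C1qb had 142, 167 and 180 (number 1), 162, 173 and 191 (number 2) and 176, 209 and 236 (number 3). For both, the median was lowest in number 1 and highest in number 3, the numbers overlapped, and the ranges were 1.28-fold and 1.27-fold (adjusted p = 0.00801 and 0.00121). C1qc, given as a description, had 114, 121 and 143, then 115, 133 and 157, then 138, 164 and 179, a 1.29-fold range. With the floor at the 40th percentile that range was 0.07 on the log2 scale. C1qc exceeded its array's 40th percentile on 3 arrays only, so that floor had to narrow the range. Aif1, Cd68, Csf1r and Itgam had ranges of at most 0.07 and were not called (adjusted p 0.455 to 0.978).

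**Figure D3:**
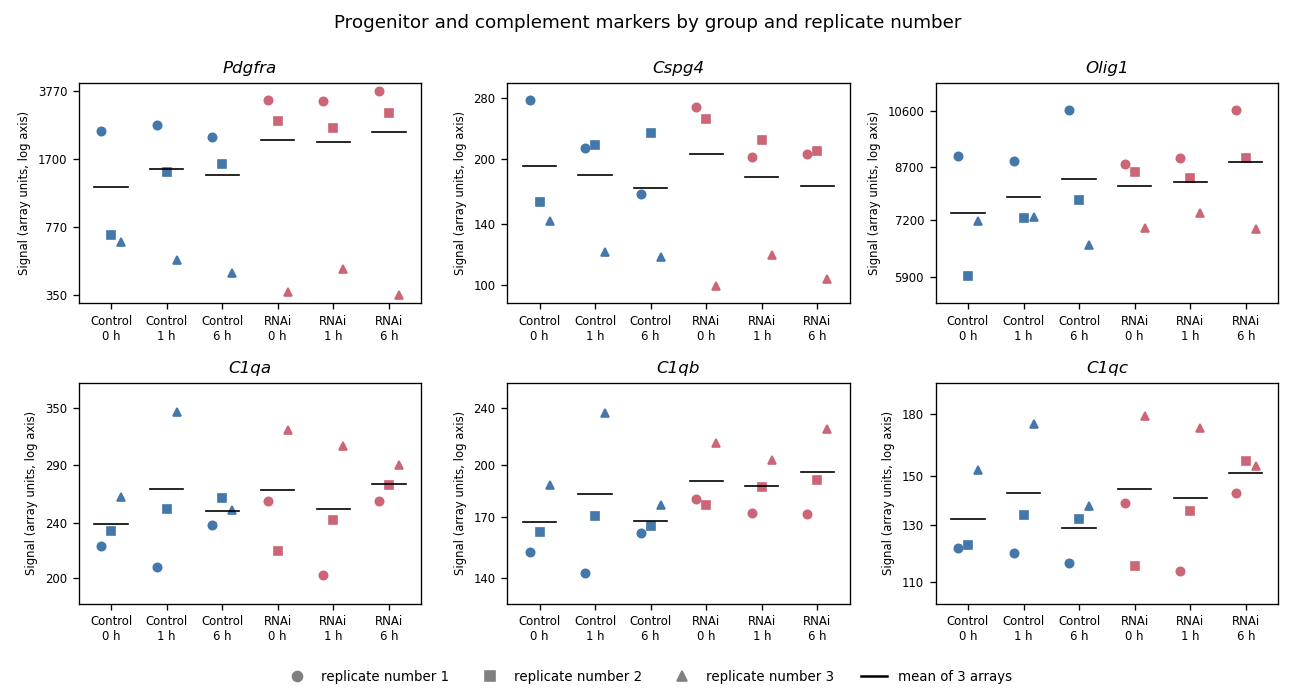
Signal (array units, log axis) of Pdgfra, Cspg4, Olig1, C1qa, C1qb and C1qc in the 6 groups, 1 point per array. Circles are number 1, squares number 2 and triangles number 3, and the bar is the arithmetic mean of the 3 signals. The triangles of Pdgfra (347 to 644) and Cspg4 lie lowest in each group, and those of the C1q genes lie highest in most groups.

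Genes of other cells differed with the number too, and 33.0% of all genes were called. All 11 tested proliferating and progenitor cell markers were called, with number 1 highest for 10. Mki67, a protein of dividing cells, had a 2.77-fold range (adjusted p = 5.8e-05), and numbers 1, 2 and 3 deviated from the group means by 0.77, -0.08 and -0.69 on the log2 scale. Top2a (2.17-fold), Cdk1 (1.97-fold) and Ccnb1 (1.79-fold), which act in the cell cycle, were likewise highest in number 1 and lowest in number 3, as Pdgfra was. Among additional oligodendrocyte genes 4 of 10 were called, with Bcas1 (3.07-fold) and Nkx2-2 (2.37-fold), both expressed in progenitors and new oligodendrocytes, and Tspan2 (1.18-fold) highest in number 1 and lowest in number 3. The fourth, Gpr37 (1.16-fold), ran the other way, and over the 10 number 1 was lowest for 5 and number 3 highest for 5. Neuronal markers were called for 10 of 21, with number 1 lowest for 16 of the 21 and number 3 highest for 16. Over all 10934 genes tested, number 1 was lowest for 4188 and number 3 highest for 3395. Of the 7 microglia markers number 1 was lowest for 5 and number 3 highest for 7. Among these, Aif1, Cd68, Csf1r and Itgam were not called and had ranges of at most 0.07, so their order carries little. Additional astrocyte genes were called for 12 of 16, reactive glia genes for 3 of 7, additional microglia genes for 2 of 11 and endothelial, mural and fibroblast markers for 1 of 11 (Fn1). The part of dividing cells or of fewer neurons in the markers' differences was not tested, and the labels do not say what a number stands for beyond a biological replicate.

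**Figure D4:**
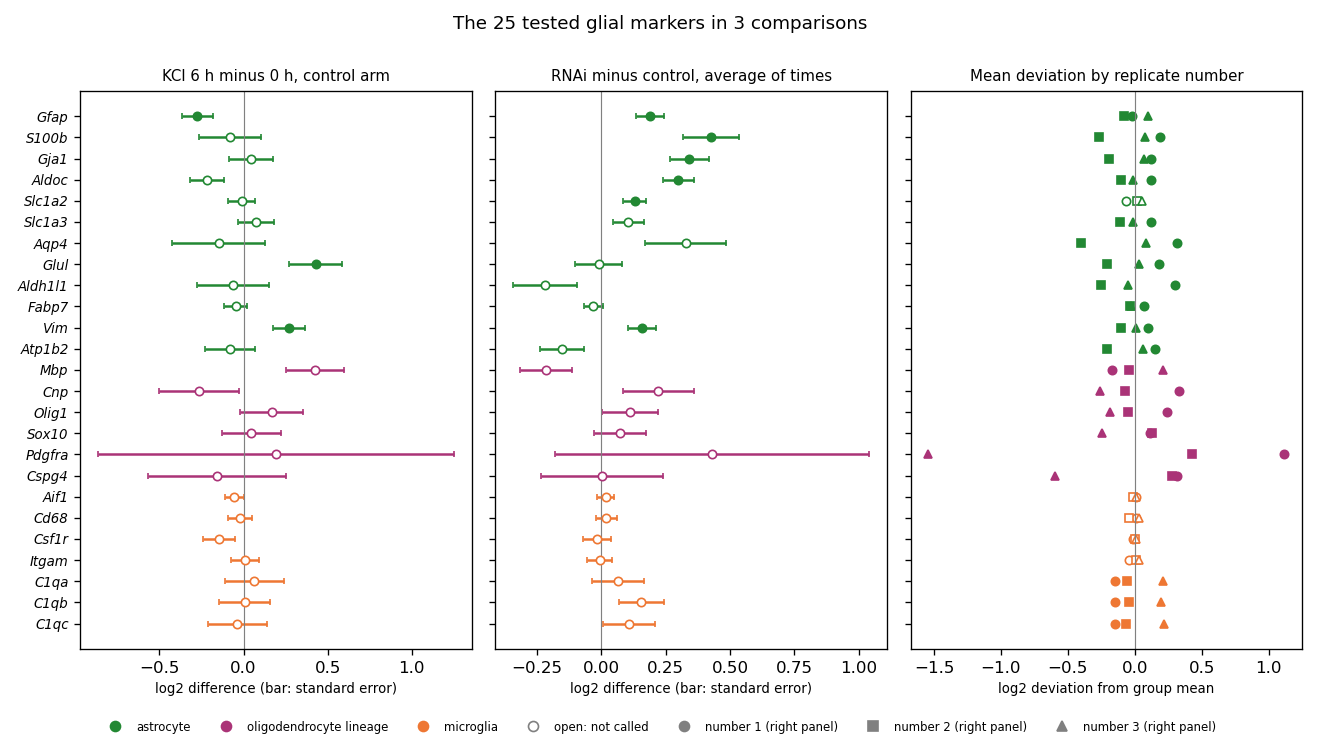
The 25 tested markers, coloured by class, in 3 panels: the log2 difference of KCl 6 h minus 0 h in the control arm and of RNAi minus control averaged over times (bars are the standard error of the fit), and the mean log2 deviation of each replicate number from the group mean. Filled points are called and open points are not. Pdgfra spans 2.66 log2 units between numbers, and its standard errors in the first and second panels are the widest.

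Of the 34 markers with a probe set, 21 had 1 and 13 had several. The other probe sets of Gja1 and Glul are given above. The dimmer probe sets of Aqp4 differed with RNAi by 0.09 (adjusted p = 0.55) and 0.26 (adjusted p = 0.168), beside 0.33 for the one used. Of the markers called with RNAi under the block alone, Atp1b2 had a second probe set at -0.07 (adjusted p = 0.562) beside -0.15, Mbp one at -0.04 (adjusted p = 0.35) beside -0.21, and Slc1a3 others at 0.21 (adjusted p = 0.197) and 0.01 (adjusted p = 0.936) beside 0.10, all in the fit without the block. That probe set of Mbp (163 to 206) was called higher after 6 h of KCl in the RNAi arm (0.19, adjusted p = 0.0133 over all probe sets), where the brighter one was not (0.23, adjusted p = 0.326). Of Cnp the second probe set differed in the same directions as the first, by -0.30 after KCl in the control arm and by 0.19 with RNAi, and neither was called.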

How the data were processed

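The 18 arrays were grouped by their titles into 6 groups of 3. The table deposited by the authors gives linear intensities, 1 for each probe set on each array. Their summarisation and normalization, which could affect small differences, are not given in the sources used here. Only 3 arrays per group limit the precision.

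Of 31099 probe sets, 20832 carried 1 symbol in the platform annotation, for 14218 genes. Values below the table's 20th percentile (72.6) were set to that floor before taking log2, so fold changes of dim genes come out too small. Genes above the 40th percentile of their array on at least 3 arrays were tested (10934). Group means over all 18 arrays were fitted with limma 3.58.1 in R 4.3.3 (12 residual degrees of freedom, 10 with the replicate number as a block), with 10 comparisons and Benjamini-Hochberg adjustment. The fit was tested on simulated data. The replicate numbers pair the arrays: in all 45 same-number pairs from different groups, deviations from the group means correlated above 0.1 (0.168 to 0.741), and each of 18 arrays correlated best with its own number.

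Every marker called in any comparison is named. Of each further list at most 4 called genes are named in a comparison, and for several lists at 6 h of KCl none is. The genes named from these lists are therefore examples. Markers and lists were chosen with earlier results of these data known. Alternatives were another floor, no filter, quantile normalization, the mean over probe sets, the block and leaving out each array. Promoters are RefSeq's, build GRCr8. No array was left out.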

Additional observations from a re-analysis of the deposited data

How the results depend on the processing

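With the replicate number as a block, the count of called markers became 6 in place of 3 for KCl at 6 h in the control arm, 3 in place of 1 in the RNAi arm, 6 for RNAi against control at 0 h, 6 at 1 h and 6 at 6 h, and 13 in place of 6 averaged over times. The block changed no other count by more than 1.5 times. Taking the mean over a gene's probe sets gave 2 called markers for KCl at 6 h in the RNAi arm. Leaving out each array in turn gave 1 marker each time for KCl at 1 h and 1 to 4 at 6 h in the control arm, 0 to 1 for each in the RNAi arm, 0 to 1 for RNAi against control at 0 h, at 1 h and at 6 h, 4 to 7 averaged over times, 0 for both interactions and 18 to 20 for the replicate number. The counts for the replicate number include Cspg4 and C1qc, which had to differ between numbers. The count for KCl at 6 h in the control arm was 1 without control 0 h number 2 or 3 or control 6 h number 3. Where a group was left with 2 arrays, the spread was still shared over all groups. Over 772 checks of a named marker under an alternative, 694 kept the call, 78 lost it and 0 changed direction. This total pools KCl, RNAi and the replicate number. It includes Cspg4 (23 of 23 kept) and C1qc (22 of 23 kept), so it overstates how often calls held. Among the KCl and RNAi calls, the most often lost were Cd68 at 1 h in the RNAi arm (12 of 24 checks), and Slc1a2 (11 of 24) and Vim (9 of 24) with RNAi averaged over times. The cause was not tested. The signal over background limits what could be seen in 9 dim markers.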
